A study of Mus musculus with 4 samples.

Results

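The 10 genes described here, Atf4, Ddit3, Trib3, Asns, Chac1, Sesn2, Ddit4, Atf3, Psat1 and Phgdh, are ATF4 and well-known genes of the stress response that it drives. They were listed by name for their place in this pathway, by a rule that uses no measured value but with earlier results of these data known, out of the 55418 genes in the count table, of which 31418 had at least 1 count. All 10 passed the filter on low counts, which kept 18444 genes for testing, and were compared between WT and Pim3-/- mouse ESCs. The study deleted Pim3, a serine/threonine kinase gene, with a pair of sgRNAs in order to ask how ESCs repress a 2C-like state.

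RNA-seq covered 4 untreated libraries of the ESC line E14, 2 of them from WT cultures and 2 from Pim3-/- clones, each counted as 1 replicate. Each Pim3-/- library comes from a single knockout clone, and the labels do not state which replicate number is which clone. Both genotypes were grown on gelatin with 15% serum and 10 ng/mL LIF, in medium supplemented with 1% nonessential amino acids and 0.1 mM beta-mercaptoethanol. P-values therefore measure the spread between these cultures and clones, and a difference between genotypes cannot be told apart from a difference between the clones and cultures that were used.

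ATF4 is a bZIP transcription factor of the integrated stress response. Kinases that sense heme loss, double-stranded RNA, unfolded protein in the ER or missing amino acids phosphorylate the translation factor eIF2α, which lowers protein synthesis as a whole but allows translation of ATF4 mRNA. ATF4 then binds C/EBP-ATF response elements and activates genes for amino acid synthesis and transport, for aminoacyl-tRNA synthetases, and for feedback and cell death. Because ATF4 is controlled largely by its translation, the level of its mRNA is not a measure of its activity, and no protein was measured in these data.

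The gene table held 22029427 to 25668307 counts per library. After scaling with TMM factors, the floor given by 3 counts lay between 0.112 and 0.157 CPM (counts scaled to library size), below the levels of all 10 genes. The TMM factors were 0.828 and 0.883 in WT and 1.17 in both Pim3-/- libraries, so library totals in place of TMM factors moved the median log2 fold change of all tested genes by 0.45, from 0.07 to 0.52. Pim3 itself stood at 224 CPM ± 7.50 in WT and at 186 CPM ± 0.10 in the libraries labelled Pim3-/- (SD, n = 2 each), so the count per gene gave no check of the labels. The 7 ESC marker genes had summed levels of 5655 to 5826 CPM in WT and of 4258 to 4508 CPM in Pim3-/- ESCs. Pou5f1 (Oct4, log2 fold change -1.12) and Nanog (-0.90) were called lower and Klf4 (1.44) higher by edgeR, and 4 were not called, beside 33.8% of all tested genes called in either direction. Values of these markers under other scalings are not given here. By qPCR the paper reported that Pim3 loss did not disturb Oct4 and raised Nanog, and it cited a western blot of NANOG protein for this rise. It also reported higher Nanog by qPCR with Pim3 shRNA and with the PIM3 inhibitor M-110. Of the 7 fibroblast markers, Lum, Dcn, Postn and Col3a1 had 0 to 2 counts in each library. The other fibroblast markers were Thy1, at 18.2 to 20.9 CPM in every library, Col1a1, at 1.72 and 1.68 CPM in WT and 5.25 and 2.02 CPM in the Pim3-/- libraries, and Col1a2, with 1 and 3 counts in WT and 30 and 3 in the Pim3-/- libraries. Of the 7, Thy1 and Col1a1 were tested and 0 called by edgeR, also at an unadjusted p under 0.05.

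The ATF4 stress response genes did not share a direction between WT and Pim3-/- ESCs. Ddit4 was 4.80-fold higher and Ddit3 was 2.12-fold lower in Pim3-/- ESCs, while the other 8 did not pass the test. At an adjusted p under 0.05 in edgeR's quasi-likelihood test, 1 of the 10 genes was higher and 1 lower, beside 17.6% of all tested genes called higher and 16.2% called lower. The calls of all tested genes in either direction made up 33.8%. The median log2 fold change of the 10 genes was -0.33, against 0.07 over all tested genes, and with library totals it was 0.12 against 0.52, so the sign of this median depends on the scaling while its difference from that of all genes was -0.40 and -0.39. The libraries also differed within the knockout group, where each of the 10 genes was higher in Pim3-/- replicate 1 than in replicate 2.

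**Figure D1:**
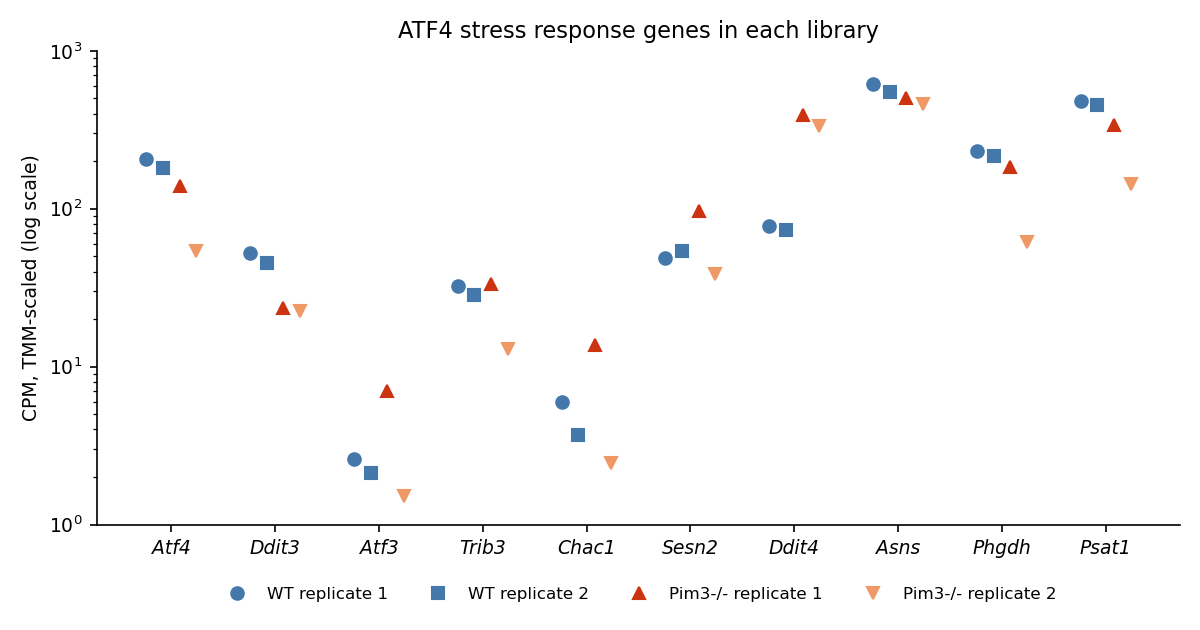
Scaled counts (CPM, log scale) of the 10 genes in each of the 4 libraries, with WT replicates in blue and Pim3-/- replicates in red and orange. Ddit4 lies far above WT in both Pim3-/- libraries, Ddit3 lies below WT in both, and 7 genes show a wide gap between the Pim3-/- replicates.

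Among the transcription factors, Atf4 (chromosome 15, 80255184-80257541, GRCm38) stood at 205 and 181 CPM in the WT libraries and at 140 and 54.2 CPM in Pim3-/- replicates 1 and 2. Both Pim3-/- libraries lay below both WT libraries, but by unequal amounts, 1.38-fold in replicate 1 and 3.57-fold in replicate 2. The group means were 193 CPM ± 17.3 and 96.9 CPM ± 60.5 (SD, n = 2 each), and the log2 fold change of -0.99 (standard error, SE, 0.39) missed the threshold with an adjusted p of 0.0815 by edgeR. The call depended on the test, as the Wald test of DESeq2 gave -1.05 with an adjusted p of 0.0101. In all, 4 of 10 alternatives made the call, namely this test, the replicate block and the fits without Pim3-/- replicate 1 or 2. The fits without a Pim3-/- library used no spread between clones, and the replicate numbers are not known to pair the samples. With library totals the adjusted p was 0.26 by edgeR. Without Pim3-/- replicate 2 the fitted value was -0.48, and without replicate 1 it was -1.85.

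Ddit3 encodes CHOP, the bZIP factor through which prolonged ER stress promotes cell death. It stood at 52.5 and 45.3 CPM in WT and at 23.6 and 22.6 CPM in Pim3-/- ESCs. The Pim3-/- libraries were nearly equal to each other and were 2.07-fold and 2.16-fold below the WT mean. Its log2 fold change was -1.08 (SE 0.17, adjusted p = 0.00573 by edgeR), and 9 of 10 alternatives kept the call. Among these were the fits without a Pim3-/- library, which used no spread between clones. The exception was the fit without WT replicate 1, with -1.02 and an adjusted p of 0.0777. Ddit3 (chromosome 10, 127290774-127296288) shares 68 exon bases, 3.97% of its exons, with the tRNA synthetase gene Mars on the opposite strand, and whether strand was used in counting is not given in the sources used here. A pair of annotated genes carries this symbol, and how the table combined them is not known.

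Atf3 (chromosome 1, 191170296-191218039), a bZIP repressor and early stress gene, was the least abundant of the 10. Its WT counts were 50 and 48 and its Pim3-/- counts 186 and 39, or 2.61, 2.12, 6.97 and 1.51 CPM in the same order. Pim3-/- replicate 1 was 2.95-fold above the WT mean and replicate 2 was 1.56-fold below it, so the groups overlapped. The exact Poisson 95% interval was 6.0 to 8.05 CPM in replicate 1 and 1.08 to 2.07 CPM in replicate 2, and the WT intervals lay between 1.56 and 3.44 CPM. These intervals cover counting error only. The fitted log2 fold change of 0.85 (SE 0.63, adjusted p = 0.325 by edgeR) turned to -0.66 without Pim3-/- replicate 1.

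Trib3 (chromosome 2, 152337422-152344032) encodes a pseudokinase that feeds back on ATF4 and CHOP and binds AKT. Its levels were 32.3 and 28.3 CPM in WT and 33.4 and 13.0 CPM in the Pim3-/- libraries. Replicate 1 thus lay at the WT level and replicate 2 was 2.33-fold below it. The log2 fold change of -0.38 (SE 0.38) had an adjusted p of 0.457 by edgeR, and it was 0.13 without Pim3-/- replicate 2 and 0.069 with library totals.

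Chac1 (chromosome 2, 119351229-119354381), which encodes a glutathione-degrading enzyme and is among the targets of ATF4 that respond most, had WT counts of 115 and 84 and Pim3-/- counts of 368 and 63. This gave 6.01, 3.71, 13.8 and 2.44 CPM, the widest gap of the 10 genes between the clones. Replicate 1 was 2.84-fold above the WT mean and replicate 2 was 1.99-fold below. The fitted log2 fold change of 0.75 (SE 0.68, adjusted p = 0.420 by edgeR) was -1.0 without Pim3-/- replicate 1 and 1.5 without replicate 2.

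Sesn2 and Ddit4 both encode inhibitors of mTORC1 that are induced by stress. Sesn2 (chromosome 4, 132492032-132510501), a leucine-binding sestrin, stood at 48.7 and 54.1 CPM in WT and at 96.9 and 38.6 CPM in the Pim3-/- libraries. It followed the clone pattern, with replicate 1 at 1.88-fold the WT mean and replicate 2 at 1.33-fold below it, and its log2 fold change of 0.40 (SE 0.37) had an adjusted p of 0.429 by edgeR. Without Pim3-/- replicate 1 the sign changed, to -0.43.

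Ddit4 (chromosome 10, 59949669-59951834), also known as REDD1, releases the TSC complex that restrains mTORC1 and responds to hypoxia and glucocorticoids as well as to ATF4. It stood at 77.9 and 73.8 CPM in WT and at 394 and 334 CPM in the Pim3-/- libraries, which lay far above both WT libraries and within 1.18-fold of each other. The group means were 75.8 CPM ± 2.87 and 364 CPM ± 43.0 (SD, n = 2 each). The log2 fold change was 2.26 (SE 0.19, adjusted p = 0.00220 by edgeR), the call held in 10 of 10 alternatives with values from 2.12 to 2.72, and it ranked 903 of 18444 tested genes by fold change from the top. In all, 1562 tested genes (8.47%) were called higher by at least 3-fold, and Ddit4 was the only one of the 10 among them.

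The remaining 3 genes encode enzymes that make amino acids. Asns (chromosome 6, 7675169-7693254), asparagine synthetase, was the most abundant of the 10, with 620 and 548 CPM in WT and 505 and 461 CPM in the Pim3-/- libraries. The Pim3-/- libraries were 1.16-fold and 1.27-fold below the WT mean and the groups did not overlap, but the difference was close to the spread between the WT cultures, which differed 1.13-fold. The log2 fold change was -0.27 (SE 0.19, adjusted p = 0.295 by edgeR) and became 0.18 with library totals.

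Phgdh and Psat1 encode the first and second enzymes of serine synthesis. Psat1 (chromosome 19, 15904678-15947337) had 481 and 453 CPM in WT and 339 and 143 CPM in the Pim3-/- libraries. Phgdh (chromosome 3, 98313170-98339990) had 232 and 214 CPM in WT and 183 and 61.8 CPM in the Pim3-/- libraries. In both genes the groups did not overlap and replicate 2 was the lower, by 3.26-fold for Psat1 and 3.62-fold for Phgdh against the WT mean, while replicate 1 was within 1.38-fold and 1.22-fold of it. Neither passed edgeR's quasi-likelihood test, with log2 fold changes of -0.95 (SE 0.36, adjusted p = 0.0777) and -0.87 (SE 0.43, adjusted p = 0.149). Psat1 was called lower by the Wald test of DESeq2 (-1.01, adjusted p = 0.00871), and Phgdh was not (-0.92, adjusted p = 0.366). Over all alternatives 4 of 10 called Psat1 lower and 2 of 10 Phgdh, with adjusted p up to 0.267 and 0.428 by edgeR. For both genes these calls include fits without a Pim3-/- library, which used no spread between clones. Without Pim3-/- replicate 2 the log2 fold changes were -0.48 and -0.31, and without replicate 1 they were -1.72 and -1.87. Other genes with stretches at least 90% identical to Phgdh, mostly processed pseudogenes, held 40 to 70 counts per library in all, at most 4.4% of the Phgdh count.

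Of the 10 genes, 6 did not overlap between the groups, Ddit4 being higher and Atf4, Ddit3, Asns, Psat1 and Phgdh lower in Pim3-/- ESCs. The background is high here, since 72.5% of all tested genes did not overlap, 38.3% higher and 34.2% lower, so 6 of 10 lies below the share of genes in general. Trib3, Chac1, Sesn2 and Atf3 overlapped.

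**Figure D2:**
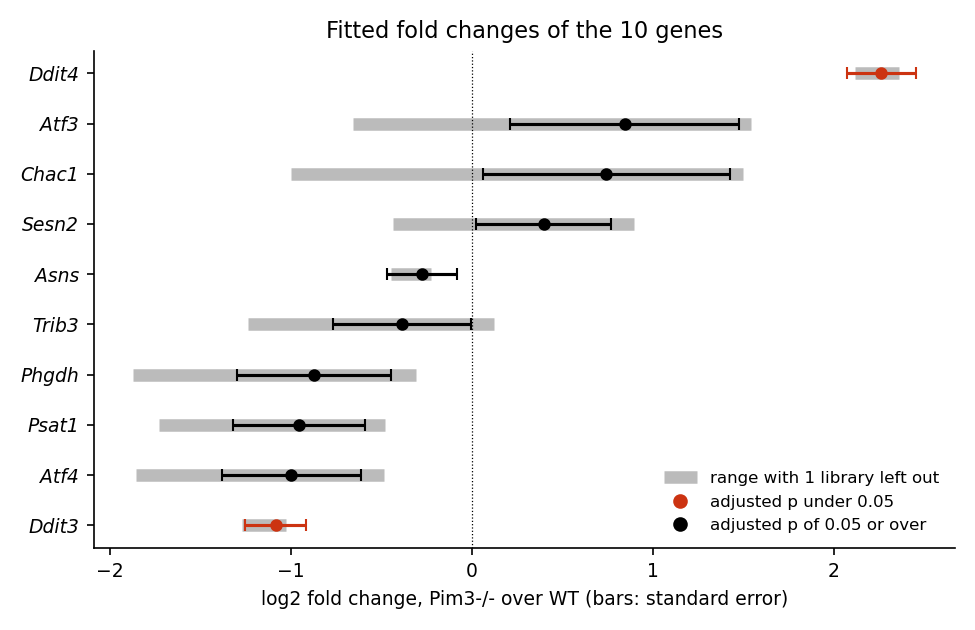
Fitted log2 fold changes (Pim3-/- over WT) of the 10 genes with their SEs, red where the adjusted p was under 0.05, and with gray bars for the range of the fitted value when 1 library was left out. Ddit4 at 2.26 and Ddit3 at -1.08 keep narrow ranges, while the ranges of Atf3, Chac1, Sesn2 and Trib3 span 0.

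The difference between the Pim3-/- libraries was then described for all 10 genes. All 10 were higher in replicate 1 than in replicate 2, with a median ratio of 2.54, whereas 52.9% of all tested genes were higher in replicate 1, with a median ratio of 1.03. The genes fell into 7 with ratios from 2.37 to 5.64, in the order Chac1 (5.64), Atf3 (4.61), Phgdh (2.96), Atf4 (2.58), Trib3 (2.57), Sesn2 (2.51) and Psat1 (2.37), and 3 with ratios from 1.04 to 1.18, namely Ddit3, Asns and Ddit4. For the first 7, between 0.314% (Chac1) and 3.23% (Psat1) of all tested genes had a ratio as large. Among tested genes with a mean of at least 10 CPM, which Chac1 and Atf3 did not reach, the share was between 0.238% (Phgdh) and 0.652% (Psat1) for the other 5. The WT cultures differed less, by a median of 0.18 on the log2 scale over the 10 genes, beside 1.34 between the clones. Over all tested genes the same medians were 0.19 and 0.36.

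With library totals the ratio of Atf4 was 2.57, so the scaling moved it little. With 1 library per clone the difference has no replicate, and it was not tested. Against the WT mean, the 10 genes had a median log2 difference of -0.03 in replicate 1 and of -1.05 in replicate 2, while all tested genes had 0.05 and 0.06.

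Counts of calls followed the libraries used. Without Pim3-/- replicate 1, 7 of the 10 genes (Atf4, Ddit3, Trib3, Chac1, Sesn2, Psat1 and Phgdh) were called lower and Ddit4 higher, beside 27.5% of all genes tested in that fit called lower and 28.3% higher. Without Pim3-/- replicate 2, Chac1, Sesn2, Atf3 and Ddit4 were called higher and Atf4, Ddit3 and Psat1 lower, beside 25.5% of all genes tested called higher and 25.3% lower. In these fits the single Pim3-/- library was assumed to vary like the WT cultures, so they describe that library and not the genotype.

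Markers of other states also differed between the Pim3-/- libraries. The 6 2C-like marker genes had summed levels of 11.1 and 10.3 CPM in WT and of 109 and 34.9 CPM in Pim3-/- replicates 1 and 2. All 6 were called higher, beside 17.6% of all tested genes. The primitive endoderm markers summed to 2.82 and 5.12 CPM in WT and to 30.3 and 16.1 CPM in the Pim3-/- libraries, with 5 of 5 tested genes called higher. The 5 mesoderm markers summed to 14.2 and 25.8 CPM beside 5.54 and 5.65 CPM in WT, mostly from Eomes (10.5 and 22.2 CPM), the 1 of 3 tested that was called, while T, Mixl1 and Hand1 were higher in replicate 1. The neuroectoderm markers summed to 11.4 to 12.5 CPM in WT and to 11.8 and 19.1 CPM in the Pim3-/- libraries, with 0 of 4 tested genes called by edgeR and 2 higher and 1 lower at an unadjusted p under 0.05. The trophoblast markers summed to 90.1 to 107 CPM in every library, mostly from Tfap2c and Krt8, while Ascl2 was called higher, with 5.64 and 5.92 CPM in WT and 19.3 and 12.6 CPM in the Pim3-/- libraries. The part of these cells in the ATF4 gene pattern was not tested, and in bulk samples more cells of a type and more RNA per cell cannot be told apart.

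**Figure D3:**
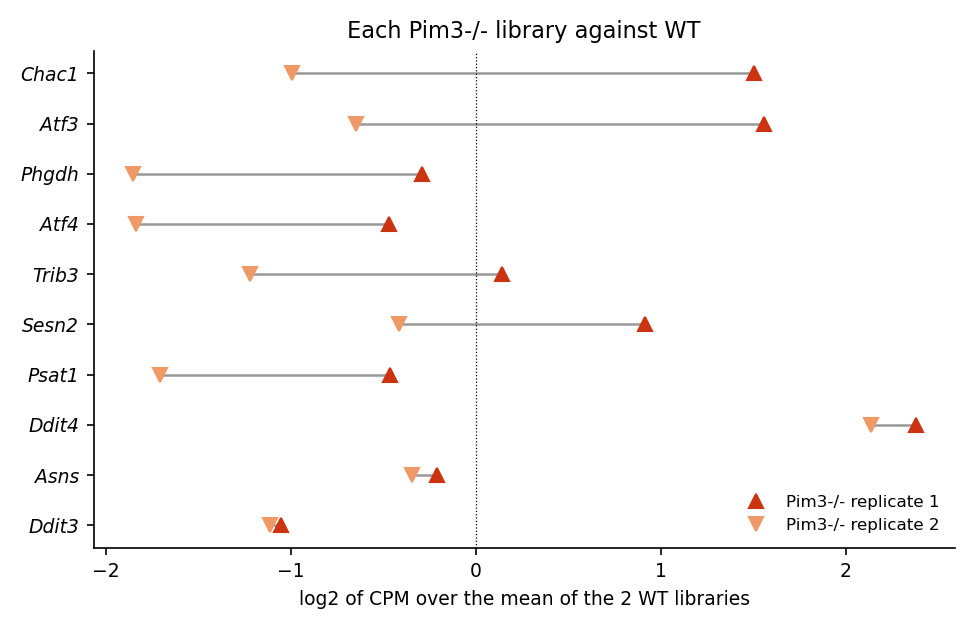
Log2 of the CPM of each Pim3-/- library over the mean of the 2 WT libraries, with replicate 1 as upward and replicate 2 as downward triangles joined by a line. All 10 genes are higher in replicate 1, with the shortest lines for Ddit3, Asns and Ddit4 and the longest for Chac1, at a ratio of 5.64.

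To compare levels between the genes, CPM were divided by the length of the annotated exons. In WT ESCs the order of these levels per kilobase was Asns (214 ± 18.6, SD, n = 2), Psat1 (110 ± 4.64), Phgdh (89.8 ± 5.08), Atf4 (81.9 ± 7.34), Ddit4 (43.2 ± 1.64), Ddit3 (28.5 ± 3.0), Sesn2 (14.8 ± 1.11), Trib3 (14.3 ± 1.32), Chac1 (2.97 ± 0.992) and Atf3 (1.10 ± 0.161). Phgdh and Atf4 overlapped between the WT libraries and so did Sesn2 and Trib3, while the other neighbours in this order did not. In both Pim3-/- libraries Ddit4 moved to the top, with 225 and 190 CPM per kilobase, above Asns with 185 and 169. This change of order depended on the length used, because with the longest transcript in place of all exons Asns stayed first at 240 CPM per kilobase beside 207 for Ddit4. The other 2 amino acid enzymes and Atf4 spread apart between the clones, Psat1 at 79.7 and 33.6, Phgdh at 73.4 and 24.8 and Atf4 at 59.2 and 23.0 CPM per kilobase.

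The promoters were searched for the core of the C/EBP-ATF response element (CARE), the 8 bases TGATGNAA through which ATF4 and C/EBP dimers act, in windows from 250 bases before to 50 after each RefSeq gene start (GRCm38.p6, both strands). The 10 genes had 11 windows, and 4 windows (36.4%) held the core, against 3.97% of all 32851 windows. The stretches of Trib3, Asns, Chac1 and Atf3 are shown because these are the members whose window holds the element, with the core in capitals and 5′ to 3′ on the strand of the gene.

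Trib3 (chr2:152344028-152344057, minus strand): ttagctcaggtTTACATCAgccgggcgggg

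Asns (chr6:7693214-7693243, minus strand): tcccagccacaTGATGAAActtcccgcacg

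Chac1 (chr2:119351038-119351067, plus strand): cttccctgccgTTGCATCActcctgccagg

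Atf3 (chr1:191183425-191183454, minus strand): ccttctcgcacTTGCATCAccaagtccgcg

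Offsets are counted from the RefSeq start, with bases before it as negative. The core begins at 14 in Trib3, -23 in Asns, -193 in Chac1 and -110 in Atf3. The gene positions given above come from GENCODE, whose starts differ. On those positions the Trib3 core lies before the gene start, and the Asns and Atf3 cores lie inside the gene. In Asns the core reads along the gene, and in Trib3, Chac1 and Atf3 it lies on the opposite strand, so that its reverse complement is printed. Chac1 and Atf3 hold the variant TGATGCAA, a special case of the same core, which was in 18.2% of the windows of the 10 genes and in 0.895% of all windows. These are also the genes with the largest ratios between the Pim3-/- replicates, 5.64 and 4.61, but Asns with a core had a ratio of 1.10, and Atf4, Phgdh, Sesn2 and Psat1 without one in these windows had ratios of 2.37 to 2.96. The CRE palindrome TGACGTCA was in no window of the 10 genes and in 1.79% of all windows. A match is a description of these letters, and no match in a window says nothing of elements elsewhere in a gene.

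Genes upstream of ATF4 were examined next, in a list of 16 kinases, eIF2 and eIF2B subunits, phosphatase subunits and bZIP partners. Of these, 3 were called higher, 5 lower and 8 did not pass, beside 17.6% of all tested genes called higher and 16.2% lower. The median log2 fold change was -0.45 (0.0024 with library totals). The kinase genes differed from each other. Eif2ak3, encoding the ER stress kinase PERK, stood at 23.0 and 25.3 CPM in WT and at 45.1 and 42.4 CPM in Pim3-/- ESCs (log2 fold change 0.86, SE 0.16, adjusted p = 0.00970 by edgeR). Eif2ak2, encoding the double-stranded RNA sensor PKR, was lower, with 15.6 and 16.1 CPM beside 10.3 in both Pim3-/- libraries (-0.61, SE 0.20, adjusted p = 0.0496 by edgeR). Eif2ak1, encoding the heme-regulated kinase HRI, and Eif2ak4, encoding the amino acid sensor GCN2, did not pass, with log2 fold changes of -0.34 and 0.17, and that of Eif2ak1 was 0.12 with library totals.

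Eif2s1, which encodes eIF2α itself, fell from 338 and 312 CPM to 166 and 146 CPM (log2 fold change -1.06, SE 0.18, adjusted p = 0.00722 by edgeR). The eIF2B subunit genes Eif2b1 and Eif2b4, whose complex recharges eIF2, were lower as well (-1.06 and -0.75), and so was Eif2b2 (-0.71), named after its value was seen. Ppp1r15a, encoding GADD34, the stress-induced phosphatase subunit that reverses eIF2α phosphorylation, rose from 23.7 and 22.7 CPM to 36.2 and 48.1 CPM (0.86, SE 0.19, adjusted p = 0.0148 by edgeR). Unlike the 10 genes, it was higher in Pim3-/- replicate 2, whereas 12 of the 16 listed genes were higher in replicate 1 (median ratio 1.14). Cebpb, which encodes a dimer partner of ATF4, also had a higher level in Pim3-/- than in WT ESCs (1.07, SE 0.26, adjusted p = 0.0181 by edgeR). With library totals 5 genes of this list were higher and 1 lower, beside 6606 higher and 1092 lower of all 18444 tested genes. Eif2ak3 and Ppp1r15a kept their calls in 8 of 10 alternatives and Eif2s1 in 9, but Eif2ak2 in 3, with a log2 fold change of -0.16 and an adjusted p of 0.571 with library totals. Cebpb kept its call in 8, Eif2b1 and Eif2b2 in 7 and Eif2b4 in 6.

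The 22 genes for the synthesis and transport of amino acids were then compared between the clones. Of these, 21 were higher in Pim3-/- replicate 1 than in replicate 2, with a median ratio of 1.72, and the median log2 difference from the WT mean was 0.01 in replicate 1 and -0.83 in replicate 2. The examples that follow were chosen for their gap after their values were seen. Pycr1, of proline synthesis, stood at 24.1 and 24.2 CPM in WT and at 48.6 and 10.6 CPM in the Pim3-/- libraries. Aldh18a1, which acts before it, stood at 64.2, 71.0, 73.4 and 25.3 CPM in the same order. Pck2, the mitochondrial PEP carboxykinase, stood at 45.9, 43.4, 46.9 and 16.1 CPM. In each the first Pim3-/- library was at or above WT and the second clearly below.

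Of these 22 genes, 3 were called lower and 0 higher between the genotypes by edgeR, beside 16.2% and 17.6% of all tested genes. At an unadjusted p under 0.05, 7 were lower and 1 higher, a threshold at which the share of all tested genes is not given here. The Wald test of DESeq2 called 6 lower and 0 higher. The median log2 fold change was -0.28, and 0.17 with library totals. The cationic amino acid transporter gene Slc7a3 fell from 203 and 206 CPM to 86.6 and 59.5 CPM (log2 fold change -1.48, SE 0.22, adjusted p = 0.00525 by edgeR). Cth, of cysteine synthesis, fell from 174 and 169 CPM to 73.0 and 68.9 CPM (-1.27, SE 0.17, adjusted p = 0.00418). Got1, the cytosolic aspartate aminotransferase, fell from 344 and 345 CPM to 186 and 153 CPM (-1.02, SE 0.19, adjusted p = 0.00861). In these 3 genes both clones lay below both WT libraries, as in 11 of the 22 in all, beside 34.2% of all tested genes. Slc7a3 and Cth kept their calls in 10 of 10 alternatives and Got1 in 8. With library totals 3 genes of the list were lower and 2 higher, beside 1092 lower and 6606 higher of all 18444 tested genes.

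The 20 cytosolic aminoacyl-tRNA synthetase genes also lay higher in replicate 1 in 19 cases, with a median ratio of 1.65 and a median log2 fold change of -0.55 (-0.10 with library totals). Of these 20, 8 were called lower and 0 higher by edgeR, beside 16.2% and 17.6% of all tested genes. The counts were 10 and 0 at an unadjusted p under 0.05 and 10 and 0 by the Wald test of DESeq2. The lowest was Rars, which fell from 386 and 345 CPM to 126 and 125 CPM without a gap between the clones (log2 fold change -1.54, SE 0.18, adjusted p = 0.00361), followed by Farsb (-1.23) and Qars (-0.92). The count of 8 was 2 with library totals, where 1092 of all 18444 tested genes were called lower. Rars kept its call in 10 of 10 alternatives, Farsb in 9 and Qars in 7.

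**Figure D4:**
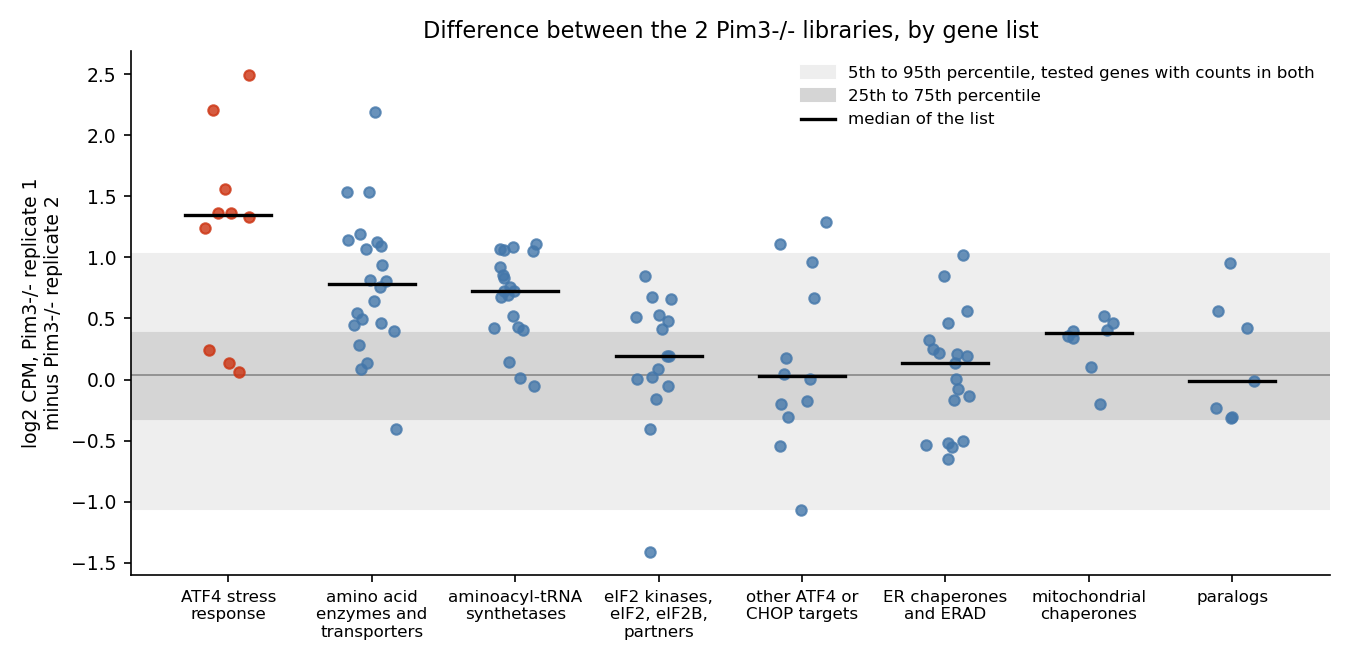
Difference in log2 CPM between Pim3-/- replicates 1 and 2 for each gene of the lists (points) with list medians (black lines), over gray bands for the percentiles of all tested genes with counts in both libraries. The medians of the 10 genes (red), the amino acid genes and the tRNA synthetase genes lie above that of all genes, at ratios of 2.54, 1.72 and 1.65.

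Other genes described as targets of ATF4 or CHOP, in growth control, secretion, autophagy and cell death, varied in their ratio between the clones. Of 13 listed genes 12 were tested (Fgf21 had at most 12 counts in a library). Their median ratio between the clones was 1.02, with Nupr1 (2.44), Bbc3 (2.16) and Gdf15 (1.94) the highest and Sqstm1 (0.478) the lowest. By edgeR 5 were called higher and 2 lower, beside 17.6% and 16.2% of all tested genes. Vldlr, a lipoprotein receptor gene, rose from WT counts of 13 and 6 to Pim3-/- counts of 215 and 207 (log2 fold change 4.11, SE 0.44, adjusted p = 0.00304). Stc2, a secreted stanniocalcin gene, rose from 3.55 and 3.67 CPM to 29.3 and 36.2 CPM (3.18, SE 0.22, adjusted p = 0.00129). Vegfa, the angiogenic growth factor gene, rose from 27.7 and 29.8 CPM to 115 and 167 CPM (2.29, SE 0.22, adjusted p = 0.00280). The other 2, Ero1l (2.15) and Pmaip1 (2.03), are named to complete the count, after their values were seen. Ratios of Pim3-/- replicate 1 over replicate 2 were 1.00 for Vldlr, 0.808 for Stc2, 0.686 for Vegfa, 0.872 for Ero1l and 1.13 for Pmaip1. The median of the 10 genes was 2.54. Whether ATF4 has a part in these 5 rises was not tested. All 5 were called in every alternative that tested them. Eif4ebp1, encoding the translation repressor 4E-BP1, was lower (-0.84, SE 0.25, adjusted p = 0.0376), as was the autophagy gene Map1lc3b (-0.71, SE 0.18, adjusted p = 0.0211).

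Stress genes of the ER and the mitochondria gave a mixed picture. Of 19 genes for ER chaperones and ER-associated degradation, 2 were called higher, Sel1l (1.18) and Edem1 (0.53), and 5 lower, Manf (-1.55), Hspa5 (-0.91), Sdf2l1 (-0.89), Pdia4 (-0.89) and Dnajc3 (-0.57). Hspa5, which encodes BiP, the main ER chaperone, stood at 187 and 224 CPM in WT and at 89.4 and 130 CPM in the Pim3-/- libraries (SE 0.23, adjusted p = 0.0207 by edgeR). Here replicate 1 was the lower clone, whereas 11 of the 19 genes were higher in replicate 1, with a median ratio of 1.10. Of 8 mitochondrial chaperones and proteases, 4 were called lower, Hspe1 (-1.41), Clpp (-1.14), Hspd1 (-0.98) and Yme1l1 (-0.77), and 0 higher by edgeR, with 5 and 0 at an unadjusted p under 0.05 and 4 and 0 by DESeq2. Between the clones, 7 of these 8 were higher in replicate 1, with a median ratio of 1.30. With TMM factors edgeR called 17.6% of all tested genes higher and 16.2% lower. With library totals 6 ER genes were higher and 1 lower, and 2 mitochondrial genes were lower and 1 higher. Under that scaling 6606 of the 18444 tested genes were called higher and 1092 lower. Without WT replicate 1 the lower counts were 1 and 0 in these lists. Of 7 paralogs of the 10 genes, such as Sesn1 and Trib1, 0 passed edgeR's test in either direction, 2 were higher and 0 lower at an unadjusted p under 0.05, DESeq2 called 0, and 4 were called higher with library totals and 4 without Pim3-/- replicate 2. Their median ratio between the clones was 0.989. Pdia4, Dnajc3 and Yme1l1 were named after their values were seen.

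**Figure D5:**
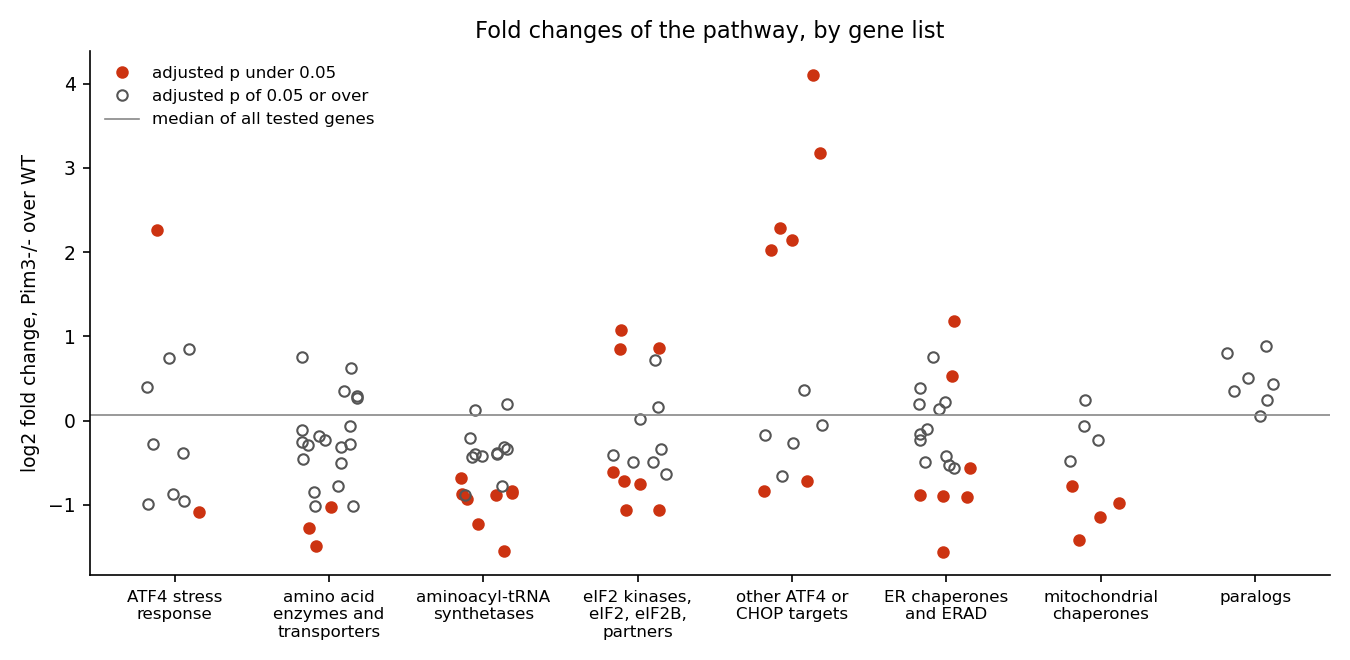
Log2 fold changes (Pim3-/- over WT) of single genes in each list, filled red where the adjusted p was under 0.05 and open otherwise, with a gray line at the median of all tested genes (0.07). Calls in the tRNA synthetase, amino acid and mitochondrial lists are lower, and the 6 highest calls are Ddit4 and 5 of the other targets.

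The genes most like Atf4 over the 4 libraries were found by the root mean square difference of log2 CPM after centring, among 9659 other tested genes with a mean of at least 10 CPM. The closest were Ggct (0.05), Timm21 (0.06) and Psat1 (0.06), and Phgdh was the 7th closest (0.08). Ggct, which encodes gamma-glutamylcyclotransferase, stood at 25.3, 23.0, 17.0 and 7.25 CPM in WT replicates 1 and 2 and Pim3-/- replicates 1 and 2. Within the other lists the closest were Psph (0.13), the last enzyme of serine synthesis, Nars (0.17), a tRNA synthetase, and Nupr1 (0.21), a stress-induced chromatin protein. All 3 enzymes of the serine pathway were therefore among the 18 genes closest to Atf4. Of the 7 others of the 10 genes that reached this level, Trib3 ranked 394, Ddit3 1689, Asns 3604 and Sesn2 4895 among the 9659 genes. Ddit4 was the least like Atf4 of the 7, with a difference of 1.75, and Chac1 and Atf3 were not compared. With 4 libraries, 166 genes lay within 0.25 of Atf4, so this closeness is not particular to the pathway.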

How the data were processed

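The RNA-seq libraries of WT and Pim3-/- E14 ESCs (n = 2 each) were analysed. The authors deposited raw counts per gene, without normalization. Their methods name Cutadapt, Hisat2, mm10 and Ensembl genes, whereas the submitters' processing notes name Trim Galore, STAR, featureCounts and GRCm38, so the program that made the counts is uncertain, and the treatment of strand and of reads with several locations is not given in the sources used here. Counts of TEs, ChIP-seq and tables of the authors' own comparisons were not used here.

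In edgeR 4.0.16, genes passed filterByExpr at a minimum count of 10 and a total of 15, and were scaled by TMM factors and compared with edgeR's quasi-likelihood test in R 4.3.3. Benjamini-Hochberg adjustment ran over the 18444 tested genes, and calls were made at an adjusted p under 0.05. CPM are TMM-scaled, and errors are SDs of 2 libraries. Alternatives were the size factors of DESeq2 1.42.0, library totals, 2 other filters, the Wald test of DESeq2, a replicate block and leaving out each library. The model was tested on simulated counts.

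The 10 genes and the other lists were chosen with earlier results of these data known. Named are all 10 genes, up to 3 called genes in each direction per list (those with 10 or more counts in each library of the group with the higher level), the eIF2α kinase genes, Ppp1r15a, and the genes closest to Atf4. Others are said to have been named after their values were seen. Positions and exon lengths came from GENCODE M21 (GRCm38), and promoter sequences came from RefSeq (GRCm38.p6), which held windows for all 10 genes. Near-identical genes were searched with blastn at 90% identity over at least 100 bases. Figures were drawn with matplotlib 3.10.9.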

Additional observations from a re-analysis of the deposited data

How the results depend on the processing

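Ddit4 passed the threshold in 10 of 10 alternatives and Ddit3 in 9. The count of genes called lower among the 10, which was 1, became 3 with the Wald test of DESeq2 and 4 with a replicate block, and ranged from 0 to 7 when 1 library was left out. The count of higher genes, also 1, ranged from 1 to 4. For all tested genes, 3246 were called higher and 2987 lower, so that 52.1% of the calls were higher. With library totals there were 6606 and 1092 (85.8% higher), and with 1 library left out from 402 to 5393 higher and from 373 to 5255 lower. The fits without a Pim3-/- library used no spread between clones. The sign changed with library totals for Trib3 (0.069), Asns (0.18) and Eif2ak1 (0.12). With 1 library left out it changed without Pim3-/- replicate 2 for Trib3, whose values ranged from -1.24 to 0.13, and without Pim3-/- replicate 1 for Chac1 (-1.0 to 1.5), Sesn2 (-0.43 to 0.90) and Atf3 (-0.66 to 1.55). With the longest transcript as gene length, 4 of the 10 genes changed places in the order of WT levels. The causes were not tested. Depth limits Atf3 most, which had 39 to 186 counts per library. Of the remaining values for the 10 genes under the alternatives, 79 kept their side of the threshold, 14 passed it only under the alternative and 1 lost the call.

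The replicate numbers are not known to pair the samples. The differences between replicates 1 and 2 correlated at 0.0306 across genes between WT and Pim3-/-. With the replicate block Atf4 (-1.15, adjusted p = 0.00584), Psat1 (-1.08, adjusted p = 0.0124) and Phgdh (-1.07, adjusted p = 0.0148) were also called lower by edgeR.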

Other observations

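Ddit4 and Vegfa are known to respond to hypoxia as well as to ATF4, so 12 other genes induced by hypoxia were listed after these values had been seen, and no test was made of the list. Of the 12, 9 (75%) had a log2 fold change of at least 1 in Pim3-/- ESCs, beside 18.4% of all tested genes, and the median was 2.41. The oxygen sensor genes Egln1 (3.06) and Egln3 (2.59), the glucose transporter gene Slc2a1 (2.41), the prolyl hydroxylase genes P4ha1 (2.40) and P4ha2 (3.38), Ndrg1 (2.88) and Bnip3 (1.87) were higher in both Pim3-/- libraries, whereas Pdk1 had 0.78, Ankrd37 had 0.34 and the demethylase gene Kdm3a had -0.36. Adm rested on 7 and 4 counts in WT and 213 and 410 in the Pim3-/- libraries. The ratio of Pim3-/- replicate 1 over replicate 2, 1.18 for Ddit4, was below 1 in 8 of the 12 and ranged from 0.502 for Adm to 2.40 for Ankrd37, with a median of 0.845. Sesn2, Atf3 and Pmaip1 are also described as p53 targets, and of 8 other p53 target genes listed at the same time 0 had a log2 fold change of at least 1, with a median of -0.06. Of these 8, 6 were higher in Pim3-/- replicate 1 than in replicate 2, among them Btg2 (2.94), Phlda3 (2.23), Mdm2 (1.63) and Zmat3 (1.59), with a median ratio of 1.44.

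Genes outside the lists were examined for the gap between the clones by their promoter sequence. Of 77 tested genes with TGATGCAA in the window, 58.4% were higher in Pim3-/- replicate 1, with a median ratio of 1.13, beside 53.3% and 1.03 of all tested genes outside the lists with a window. Of 315 genes with TGATGNAA the share was 53%, and of 405 with the CRE it was 49.9%.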
